A study of Mus musculus with 4 samples.

Results

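The report covers 10 heat shock chaperone genes (Hsph1, Hspa1a, Hspa1b, Hspa8, Hsp90aa1, Hsp90ab1, Dnajb1, Dnaja1, Hspd1 and Hspe1) out of the 33696 genes measured in liver immune cells of mice on the FPC diet, named for its Fructose, Palmitate, Cholesterol and Trans-Fat. They were chosen by measured values, since earlier results of these data had shown their CPM to differ between the libraries, so the values below describe the genes and test nothing. Livers of male wild-type C57BL/6J mice, 7 weeks old when the diet began, were sampled by fine-needle aspiration (FNA), and 12 biopsies, 4 from each of 3 mice, were pooled into 1 single-cell library per condition. P-LC24 held cells from mice given 0.05% cholesterol in the FPC diet for 24 weeks, and P-HC24 cells from mice given 1.25% for 24 weeks. The same mice were sampled again at week 32. I-LC32 mice had received 0.05% throughout, and I-HC32 mice 1.25% to week 24 and 0.05% from then on. All 4 conditions received the FPC diet, so none is a healthy control, and all biopsies were digested with collagenase for 15 minutes at 37 °C, a step before which the transcripts were not measured. The label gives the material as non-parenchymal liver cells.

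Heat shock proteins bind unfolded or newly made proteins and help them reach or regain their shape. HSP70 proteins work with J-domain proteins, which deliver clients and start ATP hydrolysis, and with HSP110 proteins, which exchange the nucleotide, while HSP90 matures kinases and steroid receptors, and the HSP60 and HSP10 chaperonin folds proteins inside mitochondria. Some of these genes are made in most cells at all times, and others are switched on by heat shock factor 1, which binds inverted repeats of the bases GAA in promoters when proteins unfold.

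Cells were assigned to B, T, NK, monocyte and macrophage classes by the raw UMI counts (counts of unique molecular identifiers, 1 per captured transcript) of marker genes. This placed 89.1% to 91.8% of the 5142 to 7418 kept cells of a library. B cells made up most of each library (3245 in P-LC24 and 4599 in P-HC24, with 4876 for I-LC32 and 4925 for I-HC32). T cells numbered 950 to 1489, monocytes 133 to 255 and NK cells 29 to 153, of which I-HC32 held the 29. Macrophages numbered 46 in P-LC24 and 77 in I-LC32 but 460 in P-HC24 and 666 in I-HC32. At least 64.9% of the macrophages had a UMI of Gata6, which is known from macrophages of the peritoneal cavity, and Clec4f, a marker of Kupffer cells, lay at 0 to 4.81 CPM. Kept cells held 41238539 to 86280132 UMIs per library, and pairs of libraries shared 13 to 36 kept barcodes. With 1 library per condition there is no replicate error, and a library's diet, mice and handling cannot be told apart. Levels are CPM, the UMIs of a gene scaled to 1e6 summed UMIs of a class, which need no scaling for gene length because the kit tags each transcript once at its 3′ end. Values in a run of 4 are in the order P-LC24, P-HC24, I-LC32, I-HC32. Intervals in parentheses are exact 95% intervals and cover counting error only. Prog is the log2 ratio of P-HC24 over P-LC24, and Int that of I-HC32 over I-LC32.

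RefSeq promoter windows (250 bases before to 50 after a start site, build GRCm38.p6) were at hand for 7 of the 10 genes, 12 windows in all. Hspa8, Hsp90aa1 and Hsp90ab1 had none. The windows were searched for the letters of the heat shock element, TTCNNGAA and GAANNTTC, which read the same on both strands and can overlap. Capitals mark the matches in the runs below, which are shown because the genes differ in these letters.
Hsph1, before the start, chr5:149636351-149636380, minus strand: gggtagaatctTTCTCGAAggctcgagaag
Hsph1, after the start, chr5:149636287-149636316, minus strand: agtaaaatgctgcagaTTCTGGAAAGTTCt
Hspa1a, chr17:34972242-34972271, minus strand: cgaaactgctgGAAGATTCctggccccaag
Hspa1b, chr17:34959324-34959353, minus strand: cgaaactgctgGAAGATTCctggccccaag
Dnaja1, chr4:40722333-40722362, plus strand: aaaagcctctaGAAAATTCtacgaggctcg
Hspd1, chr1:55088053-55088082, minus strand: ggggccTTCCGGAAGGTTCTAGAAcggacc
Hspe1, chr1:55088053-55088082, plus strand: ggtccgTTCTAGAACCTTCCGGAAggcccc
Hspd1 and Hspe1 lie head to head, and the run of 18 matching bases between them is the same stretch read from either strand. It starts 144 bases before the Hspd1 start of that window and 89 bases before the Hspe1 start. The Hspa1a and Hspa1b windows differ at 4 of 300 bases, and the run shown is identical in both and starts 104 bases before each start. Longer matches with a further repeat unit (TTCNNGAA extended by NNTTC, or GAANNTTC by NNGAA) were held by both Hsph1 windows, by the Hspe1 window and by 1 of the 2 Hspd1 windows. Of 32851 windows of this length, 15.1% held the shorter letters and 0.603% the longer ones. No match was found in the Dnajb1 windows. A match is a description of the letters and not a measured binding site.

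Ratios were read only where the gene was found in 10% or more of a class's cells in one of the paired libraries and where the pair held 100 or more of its UMIs, and such pairs are called compared. Of the 50 pairs of a gene and a class, 40 were compared in each contrast. In Prog 11 of the 40 were at least 1.2-fold lower, 6 at least 1.2-fold higher and 23 in between. Relative to the median ratio of all genes compared in the class, which lay at -0.12 to -0.23 in Prog, the same 40 split into 7 lower and 9 higher. In Int 2 were lower, 26 higher and 12 in between, and the split was the same relative to the class median. I-HC32 thus held the higher level in most compared pairs, while most Prog ratios stayed within 1.2-fold. Pairs were counted by the ratio alone, and in NK cells some of their intervals include no difference. There Dnaja1, counted as lower in Int, had -0.28 (-0.68 to 0.12), and Hsp90aa1, counted as higher, 0.35 (-0.07 to 0.76). Hspd1, counted as lower in Prog, had -0.29 (-0.92 to 0.30).

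In B cells 8 of the 10 genes were compared. In Prog 1 was lower and 1 higher, where 44.3% of all 6685 genes compared were lower and 15.2% higher. In Int 6 of the 8 were higher and none lower, where 12.9% of 7564 genes were higher and 7.09% lower. T cells also had 8 genes compared, with 1 lower and 1 higher in Prog against 46.3% and 11.6% of 6801 genes. In Int 4 of the 8 were higher and 1, Dnajb1, was lower in T cells, against 18.6% and 9.75% of 6659 genes. Monocytes had 8 compared in Prog, of which 3 were lower and none higher, against 35.9% and 18.9% of 5703 genes. In Int all 10 were compared in monocytes, and 8 were higher and none lower, against 19.7% and 19.9% of 5888 genes. Macrophages had all 10 compared, with 4 lower and 3 higher in Prog against 41.4% and 18.3% of 7544 genes, and 6 higher and none lower in Int against 15.1% and 31.7% of 8592 genes. In NK cells, the class with the fewest cells, 6 were compared in Prog (2 lower, 1 higher, against 40.6% and 20.3% of 2420 genes) and 4 in Int (1 lower, 2 higher, against 23.7% and 19.8% of 898 genes). Where the share of members is near the background, as for the higher genes of Prog in B and T cells, it is no result about the chaperones.

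**Figure D1:**
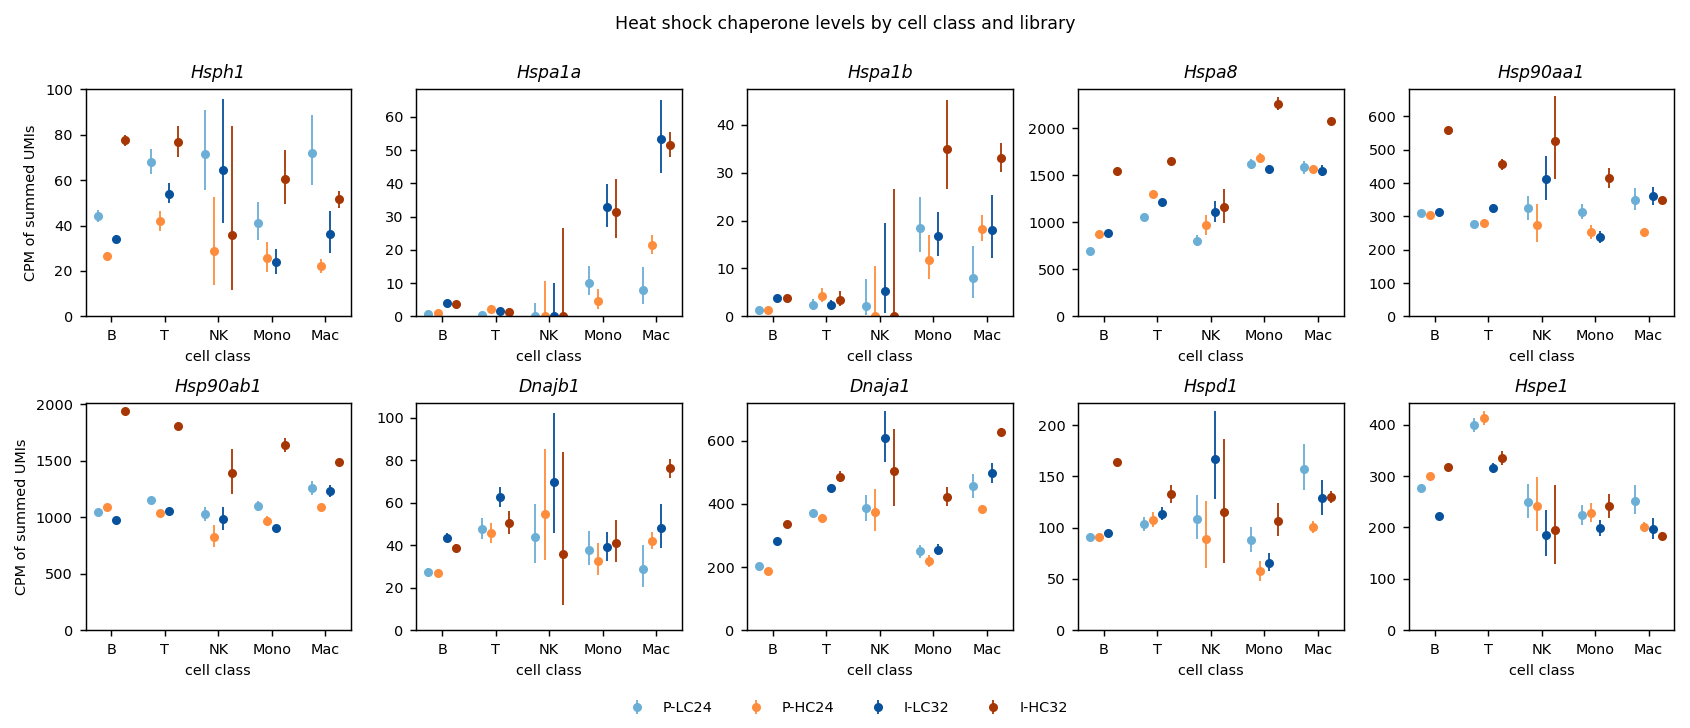
CPM of summed UMIs (y axis, linear from 0) of the 10 genes in B, T, NK, monocyte (Mono) and macrophage (Mac) cells (x axis), 1 point per library with its exact 95% Poisson interval for counting error. I-HC32 is the highest of the 4 libraries for Hsp90ab1 in all 5 classes, and Hspa1a and Hspa1b lie near 0 in the 3 lymphocyte classes.

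Hsp90ab1 and Hspa8, the constitutive HSP90 and the constitutive HSP70 of the cytosol, were the most abundant of the 10 genes in every class, followed by Hsp90aa1, Dnaja1 and Hspe1. Hsp90ab1 (ENSMUSG00000023944, chr17:45878552-45891949, minus strand, GRCm39) stood at 1045 CPM in P-LC24 and 1087 in P-HC24, with 973 for I-LC32 and 1940 for I-HC32 in B cells. The first 3 libraries lay close together, and I-HC32 stood alone. Its Int ratio in B cells was 1.00 (0.98 to 1.01), and its Prog ratio 0.06 (0.04 to 0.08). T cells held 1155, 1039, 1054 and 1809 CPM in the same order, which gave an Int ratio of 0.78 (0.74 to 0.82). Monocytes had 1099, 968, 901 and 1638 CPM and an Int ratio of 0.86 (0.79 to 0.94). In both, the I-HC32 level lay above the other 3 and Prog stayed within 1.2-fold. Macrophages held 1257, 1088, 1234 and 1493 CPM, a smaller difference in Int of 0.27 (0.21 to 0.34). NK cells held 1027, 826, 981 and 1395 CPM, where 194 UMIs stand behind the last value.

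Hsp90aa1 (ENSMUSG00000021270, chr12:110656842-110669166, minus strand), the HSP90 gene known to be raised by stress, was lower than Hsp90ab1 in every class and library. In B cells it measured 311 CPM in P-LC24 and 303 in P-HC24, with 314 for I-LC32 and 559 for I-HC32. Again 3 libraries were alike and I-HC32 was apart, with ratios of -0.04 (-0.08 to 0.00) in Prog and 0.83 (0.81 to 0.86) in Int. T cells held 276, 280, 325 and 456 CPM, and monocytes 313, 252, 237 and 414 CPM. Macrophages differed from these classes. They held 350, 252, 360 and 350 CPM, so that P-HC24 was the low library (-0.47, -0.62 to -0.32) and both week 32 libraries were alike (Int -0.04, -0.16 to 0.08).

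Hspa8 (ENSMUSG00000015656, chr9:40711630-40731039, plus strand) was the one abundant gene that was higher in both contrasts in B and T cells. B cells held 694 CPM in P-LC24 and 880 in P-HC24, with 883 for I-LC32 and 1547 for I-HC32. The Prog ratio was 0.34 (0.32 to 0.37) and the Int ratio 0.81 (0.79 to 0.83). T cells held 1053, 1299, 1219 and 1654 CPM, with 0.30 (0.26 to 0.34) in Prog and 0.44 (0.40 to 0.48) in Int. P-LC24 was the lowest library in both classes and I-HC32 the highest. In monocytes (1623, 1683, 1566 and 2264 CPM) and macrophages (1587, 1569, 1552 and 2075 CPM) Prog stayed within 1.2-fold, and only I-HC32 stood above the rest. NK cells held 803, 970, 1112 and 1165 CPM, where the week 32 libraries overlapped in their intervals.

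Hsph1 (ENSMUSG00000029657, chr5:149537636-149560156, minus strand) encodes HSP110, the nucleotide exchange factor of HSP70, and was lower in Prog and higher in Int in each of the 4 classes compared. In B cells it measured 44.2 CPM in P-LC24 and 26.7 in P-HC24, with 33.9 for I-LC32 and 77.6 for I-HC32. P-HC24 was the lowest and I-HC32 the highest library, with a Prog ratio of -0.73 (-0.85 to -0.61) and an Int ratio of 1.19 (1.11 to 1.28). T cells had the same order, with 68.0, 41.9, 54.1 and 76.8 CPM and ratios of -0.70 (-0.90 to -0.50) and 0.51 (0.33 to 0.68). Monocytes held 41.3, 25.6, 23.8 and 60.6 CPM, with -0.69 (-1.18 to -0.22) and 1.35 (0.91 to 1.79). The 2 lowest libraries of the monocytes, P-HC24 and I-LC32, overlapped in their intervals. Macrophages held 72.1, 22.0, 36.4 and 51.5 CPM. Their Prog ratio of -1.71 (-2.07 to -1.34) was the largest of any compared pair, but the P-LC24 level rests on 90 UMIs in 46 cells. The macrophage Int ratio of 0.50 (0.13 to 0.89) rests on 65 UMIs in I-LC32 and became -0.20 when every cell was given the same weight. NK cells held 5 to 67 UMIs of Hsph1 and were not compared. At an equal depth of 2000 UMIs per cell, 6.00% of I-LC32 B cells (5.35 to 6.70) and 12.7% of I-HC32 B cells (11.8 to 13.7) had a UMI of Hsph1. At full depth these shares were 22.1% and 45.9%.

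Hspa1a (ENSMUSG00000091971, chr17:35188166-35191132, minus strand) and Hspa1b (ENSMUSG00000090877, chr17:35175412-35178214, minus strand) encode the heat-inducible HSP70 and lie 9951 bases apart. Although 56.3% of the 60-base words of the Hspa1a transcript also occur in that of Hspa1b, the last 500 bases, where 3′ tags come from, shared no such word. Their counts were still handled by the authors' pipeline alone, so the split between the copies is less certain than the sum. Both were near 0 in lymphocytes. In B cells Hspa1a measured 0.711 CPM in P-LC24 and 0.964 in P-HC24, with 4.14 for I-LC32 and 3.57 for I-HC32, and neither gene was compared there or in T cells. Hspa1a had 0 UMIs in NK cells of all 4 libraries, where 3 UMIs would make 3.21 to 21.6 CPM. Myeloid cells held more. Monocytes had 10.1, 4.61, 32.8 and 31.5 CPM of Hspa1a and 18.5, 11.7, 16.7 and 35.0 CPM of Hspa1b. Macrophages had 8.01, 21.6, 53.2 and 51.6 CPM of Hspa1a and 8.01, 18.3, 17.9 and 33.1 CPM of Hspa1b. The copies had different ratios in Int. Hspa1a was high in both week 32 libraries and alike between them (macrophage Int -0.05, -0.36 to 0.28), and Hspa1b was higher in I-HC32 (macrophage Int 0.88, 0.37 to 1.45, and monocyte Int 1.07, 0.51 to 1.63). The macrophage Prog ratios of 1.43 and 1.19 rest on 10 UMIs of each copy in P-LC24.

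In B cells, monocytes and macrophages of I-HC32, cells with a UMI of Hspa1a had one of Hspa1b more often than cells without it. In its macrophages 49.5% of the 303 cells with Hspa1a also had Hspa1b, against 29.8% of the others, at median depths of 22036 and 20123 UMIs. In I-HC32 B cells these shares were 25.2% of 143 cells and 2.70% of the others, at median depths of 13250 and 8645 UMIs. The other 8 genes together stood at 6718 CPM in the B cells with Hspa1a and at 4898 CPM in those without. In macrophages of the same library the corresponding levels, 5039 and 4935 CPM, were close. Other libraries had the same direction in part. In I-LC32 the shares with Hspa1b were 14.0% and 2.25% in B cells and 34.2% and 10.3% in macrophages. P-HC24 macrophages had 37.1% and 18.9%. In P-LC24 the shares were 12.5% and 10.5% in macrophages, and 0% and 0.959% in B cells. The other 8 genes stood at 4226 CPM in I-LC32 B cells with Hspa1a and at 2794 CPM in those without. The part of depth in these shares and levels was not tested.

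The J-domain genes went separate ways. Dnajb1 (ENSMUSG00000005483, chr8:84334811-84339820, plus strand), the stress-induced partner of HSP70, measured 27.3 CPM in P-LC24 and 27.1 in P-HC24, with 43.6 for I-LC32 and 38.7 for I-HC32 in B cells. Both week 32 libraries lay above both week 24 libraries, and I-HC32 was not the higher of the pair (Int -0.17, -0.26 to -0.08). T cells held 47.7, 45.5, 62.6 and 50.3 CPM, with an Int ratio of -0.31 (-0.51 to -0.12), and monocytes 37.9, 32.7, 39.0 and 41.0 CPM, whose intervals overlapped. In macrophages I-HC32 was instead the higher of the week 32 pair. They held 28.8, 42.0, 48.2 and 76.1 CPM, with an Int ratio of 0.66 (0.34 to 0.99). Dnaja1 (ENSMUSG00000028410, chr4:40722056-40737149, plus strand), a constitutive partner of HSC70, measured 204, 186, 282 and 338 CPM in B cells. Its Int ratio there, 0.26 (0.23 to 0.30), fell just short of 1.2-fold, and T cells had 0.11 (0.04 to 0.17). Monocytes held 249, 219, 254 and 423 CPM of Dnaja1, where I-HC32 stood apart (Int 0.74, 0.59 to 0.88), and macrophages 456, 385, 497 and 628 CPM (Int 0.34, 0.24 to 0.44).

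Hspd1 (ENSMUSG00000025980, chr1:55116989-55171038, minus strand) and Hspe1 (ENSMUSG00000073676, chr1:55127260-55130476, plus strand) encode HSP60 and HSP10 of mitochondria. The annotated span of Hspd1 covers that of Hspe1 on the other strand. Hspd1 measured 91.3 CPM in P-LC24 and 91.3 in P-HC24, with 94.9 for I-LC32 and 164 for I-HC32 in B cells, with ratios of 0.00 (-0.08 to 0.08) and 0.79 (0.74 to 0.84). In T cells it held 104, 108, 114 and 133 CPM and stayed within 1.2-fold in both contrasts. Monocytes had 88.1, 57.4, 65.9 and 107 CPM, lower in Prog (-0.62, -0.94 to -0.30) and higher in Int (0.70, 0.40 to 0.99). Macrophages had 158, 101, 129 and 130 CPM and differed in Prog alone (-0.65, -0.87 to -0.42). Hspe1 was the gene least like the others. It held 277, 300, 222 and 317 CPM in B cells, so that I-LC32 was the low library (Int 0.52, 0.48 to 0.55), and 399, 413, 316 and 335 CPM in T cells, where both week 24 libraries were the higher ones. Hspd1 and Hspe1, which share the promoter stretch shown above, had different orders of the libraries in every class, though I-HC32 NK cells held only 16 UMIs of Hspd1.

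**Figure D2:**
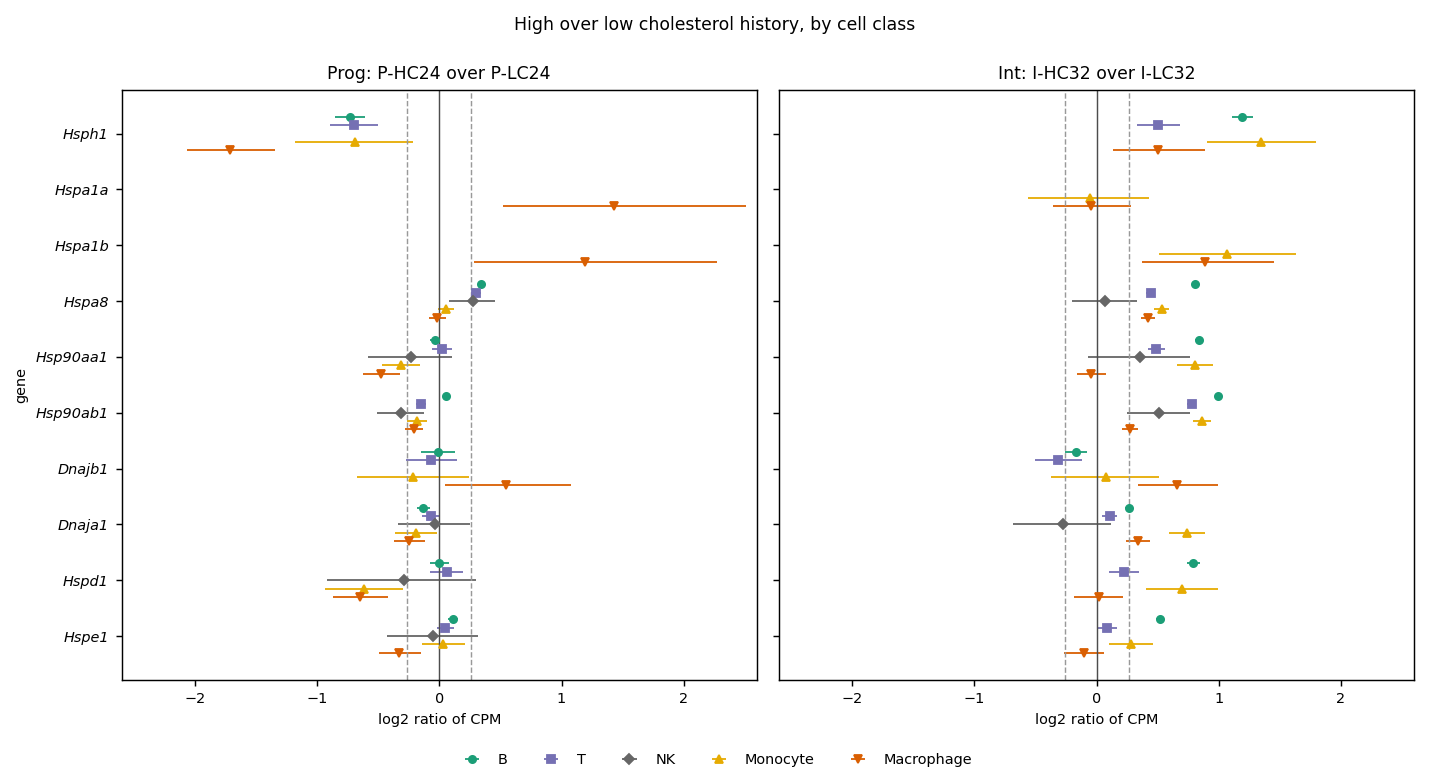
Log2 ratios of CPM (x axis) of the 10 genes (y axis) in Prog (left) and Int (right), 1 marker per cell class with its exact 95% interval for counting error, for compared pairs only, with dashed lines at 1.2-fold. Most Int ratios lie to the right of the dashed line, and Hsph1 lies left of it in Prog in the 4 classes compared.

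The order of the genes by level differed little between classes. Hsp90ab1 and Hspa8 held ranks 1 and 2 in all 5 classes, and their ranges over the 4 libraries overlapped in each class but macrophages. Hspd1 was in rank 6 in all 5, Hsph1 and Dnajb1 shared ranks 7 and 8, and their ranges overlapped in each class. Between classes, Hspa8 averaged 1784 CPM over the 4 libraries in monocytes, 1696 in macrophages, 1306 in T cells, 1013 in NK cells and 1001 in B cells. Hspe1 had its highest mean in T cells (366 CPM) and its lowest in macrophages (208 CPM). Hsp90ab1 was alike across classes, between 1057 and 1268 CPM.

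In B cells, T cells and monocytes the whole distribution over cells lay higher in I-HC32. After each cell was thinned to 2000 UMIs, the 10 genes together had a median of 5 UMIs per B cell in P-LC24, P-HC24 and I-LC32 and of 9 in I-HC32. The 10th percentile of B cells was 2 UMIs in the first 3 libraries and 4 in I-HC32, and the 90th percentile was 9, 9, 10 and 16. T cells had medians of 7, 7, 7 and 10, and monocytes of 6, 6, 6 and 9.5. Macrophages had 8.5, 7, 8 and 9. Their I-HC32 percentiles were also the highest except the 25th, where P-LC24 was equal at 7. NK cells had 5, 5, 6 and 6. In both classes the ranges overlapped widely. Thinning left out 29 to 41 B cells of a library.

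**Figure D3:**
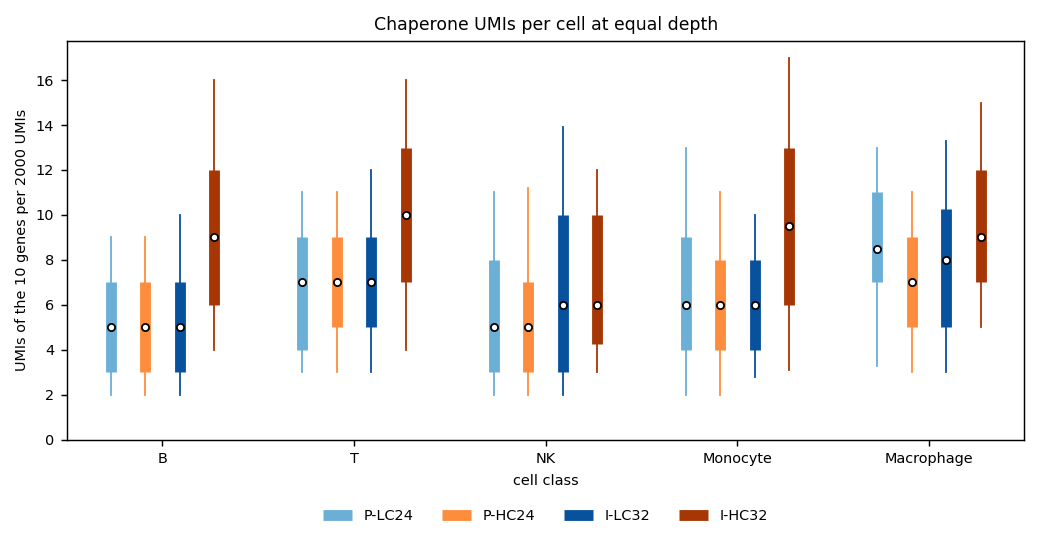
UMIs of the 10 genes per cell after thinning to 2000 UMIs (y axis, from 0) by cell class and library. White points are medians, thick bars run from the 25th to the 75th percentile and thin lines from the 10th to the 90th. The I-HC32 medians of B cells, T cells and monocytes sit above those of the other 3 libraries, while the thick bars overlap.

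Other measures moved with the libraries. Median depth of B cells was 5892, 6815, 6916.5 and 8802 UMIs, and their median mitochondrial share 4.07%, 5.45%, 5.26% and 4.47%. In strata of B cells under 5000, from 5000 to under 10000 and from 10000 UMIs, 6, 6 and 7 of the 8 genes left after Hspa1a and Hspa1b were at least 1.2-fold higher in Int. In strata of the mitochondrial share, 8, 6 and 7 of the 8 were higher. These strata had no filter on low counts, and the share of all genes past 1.2-fold was not computed within them. In all B cells 12.9% of genes compared were higher in Int. The part of depth and of the mitochondrial share in the ratios was not tested. Haemoglobin genes, from red blood cells, summed to 17625, 11008, 16574 and 3713 CPM in B cells and to 11771, 8639, 18612 and 1146 CPM in T cells, lowest in I-HC32 in both. S100a8, a neutrophil gene, measured 98.7, 84.3, 15.2 and 1.31 CPM in B cells, while Alb of hepatocytes lay between 0.450 and 2.68 CPM. Lck and Cd2 were checked as T cell genes, and in B cells Lck lay at 7.29 to 8.79 CPM. Cd2 measured 361, 546, 570 and 795 CPM in B cells, highest in I-HC32, and was found in 70.8% to 95.8% of them. In T cells Cd2 measured less, 240, 309, 334 and 464 CPM, so it did not mark T cells here. Both together summed to 370, 554, 579 and 802 CPM in B cells, most of it from Cd2. The 16 immediate early genes, which respond quickly to stimulation and handling, summed to 4894, 5194, 6371 and 6175 CPM in B cells, where I-HC32 was not the highest. In T cells they summed to 3465, 4392, 4077 and 5280 CPM, highest in I-HC32, as in macrophages with 9360, 11657, 13408 and 19353 CPM. The part of haemoglobin, S100a8, Cd2 and these early genes in the chaperone levels was not tested.

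The numbers of B cells in sets defined by marker UMIs also differed. Deeper cells hold a UMI of a given gene more often, and the part of depth in these numbers was not tested. Cells with a UMI of Fcer2a, a gene of follicular B cells, and none of Zbtb32, Bhlhe41 or Cd9 numbered 1729 in P-LC24 and 1299 in P-HC24, with 1540 for I-LC32 and 913 for I-HC32. Within these cells 6 of 8 genes were higher in Int, but the median ratio was 0.43 in place of 0.80. The share of all genes past 1.2-fold was not computed in this set, nor in the reverse set that follows. Hsp90ab1 had an Int ratio of 1.10 (1.06 to 1.14) there and Hsph1 of 0.89 (0.68 to 1.11), while Hsp90aa1 had 0.47 (0.40 to 0.55) and Hspd1 0.40 (0.25 to 0.54). In the reverse set, cells with Zbtb32, Bhlhe41 or Cd9 and without Fcer2a numbered 594, 1633, 1738 and 2430. There 7 of 8 genes were higher and the median was 0.86. T cells with Cd4 and T cells with Cd8a or Cd8b1 gave medians of 0.43 and 0.37 and Hsp90ab1 ratios of 0.84 (0.76 to 0.93) and 0.72 (0.66 to 0.77). The make-up of the monocyte class differed as well. Ly6c2 was found in 67.5% of I-LC32 monocytes and 32.3% of I-HC32 monocytes. For Treml4 these shares were 34.9% and 43.6%, and for Cd209a, a dendritic cell gene, 19.6% and 24.1%. Haemoglobin genes summed to 13117 and 90.3 CPM in these cells. The part of this make-up in the monocyte ratios was not tested.

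Levels of the genes were also followed over 20 points, 5 classes in 4 libraries, after the mean of each class was removed from log2(CPM + 10). Points of a library share its depth and handling, and those of a class its cells, so the correlations are a description. Hsp90aa1 and Hsp90ab1 were the most alike pair (Pearson r = 0.92). Dnaja1 was the gene most like the mean of the other 9 (r = 0.90), and Hspe1 the least (r = -0.18). Of 1167 other genes with at least 20 UMIs in every point, Hspa5 was the most like the mean of the 10 (r = 0.88), and encodes the HSP70 of the endoplasmic reticulum. Klf2, Nrip1, Pik3r5, Saraf, Snx3, Purb, Ezr, A330023F24Rik and Tsc22d3 came next, with r from 0.80 down to 0.71. In B cells Hspa5 measured 176, 191, 219 and 298 CPM and Klf2, a transcription factor of quiescent lymphocytes, 1272, 1581, 1741 and 2137 CPM, both highest in I-HC32. Tsc22d3, which encodes the glucocorticoid-induced leucine zipper, measured 321, 302, 430 and 453 CPM.

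Co-chaperones of HSP70 and HSP90 were in part higher in Int in B cells, T cells and monocytes. In B cells 11 of the 19 compared were at least 1.2-fold higher and none lower, with a median ratio of 0.27 against 0.04 for all genes compared. Of all genes compared in B cells 12.9% were higher. T cells had 7 higher and 1 lower of 19, where 18.6% of all genes were higher and 9.75% lower. Monocytes had 8 higher of 17, against 19.7%. The 2 higher of 19 in macrophages were not above the 15.1% of all genes. Ptges3, the HSP90 co-chaperone p23 and the most abundant of the list, measured 178, 145, 139 and 196 CPM in B cells (Int 0.49, 0.45 to 0.54). Fkbp5, an HSP90-binding immunophilin known as a target of the glucocorticoid receptor, had the highest Int ratio of the list, with 64.3, 53.0, 40.3 and 97.7 CPM (1.28, 1.199 to 1.35). St13, which links HSP70 and HSP90, had the lowest Prog ratio (-0.40, -0.46 to -0.34), Sgta the highest (0.37, 0.20 to 0.55) and Bag6 the lowest Int ratio (-0.10, -0.22 to 0.02). Fkbp4, Ahsa1 and Stip1, HSP90 partners picked after their values were seen, had Int ratios of 1.00, 0.82 and 0.92 in B cells. In Prog the list split into 4 lower and 2 higher of 19 in B cells, both below the 44.3% and 15.2% of all genes.

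Chaperones of the endoplasmic reticulum followed the cytosolic ones in B cells and monocytes. In Int 12 of 15 were higher and 1 lower in each, with medians of 0.45 and 0.53. Of all genes 12.9% and 19.7% were higher in these classes, and 7.09% and 19.9% lower. In T cells 3 of 13 were higher, near the 18.6% of all genes, and in macrophages 5 of 16, against 15.1%. Hsp90b1, the HSP90 of this compartment, measured 261, 214, 190 and 346 CPM in B cells (Prog -0.29, -0.33 to -0.24, and Int 0.87, 0.83 to 0.90). Sdf2l1 had the highest ratios of the list (Prog 0.41, 0.25 to 0.57, and Int 1.12, 0.99 to 1.24). Dnajb9, a J-domain gene of the unfolded protein response, had the lowest Int ratio (-0.44, -0.52 to -0.37), and P4hb, a disulfide isomerase, the lowest Prog ratio (-0.30, -0.40 to -0.19). The chaperonin TRiC and prefoldin, which fold actin and tubulin, differed in Prog as well. In B cells 9 of 14 were higher in Prog and 7 of 14 in Int, against 15.2% and 12.9% of all genes, with medians of 0.30 and 0.27. Pfdn5 measured 531 CPM in P-LC24 and 692 in P-HC24 (0.38, 0.35 to 0.41), and Cct4 had the highest Prog ratio (0.52, 0.46 to 0.59) and Cct6a the lowest (0.12, 0.04 to 0.20). Cct3 had the highest Int ratio (0.82, 0.76 to 0.87) and Pfdn5 the lowest (-0.12, -0.14 to -0.10).

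In B cells other J-domain genes, other mitochondrial chaperones and proteases, and heat shock factors with their regulators had Int medians of 0.09, 0.14 and 0.10. None of the 18 other J-domain genes compared in B cells passed 1.2-fold in Int, where 12.9% of all genes were higher. In Prog 6 of 17 were lower and 1 higher, both below the 44.3% and 15.2% of all genes. Among them Dnajc7, a co-chaperone of HSP70 and HSP90, measured 260, 351, 425 and 389 CPM (Prog 0.43, 0.39 to 0.48), and Dnajc13 had the lowest Prog ratio (-0.56, -0.66 to -0.47). In Int Dnajb4 was lowest (-0.24, -0.36 to -0.13) and Dnajc14 highest (0.26, 0.13 to 0.38). Of other HSP70 and HSP110 genes, 2 of 3 were higher in Int in B cells, where 12.9% of all genes were higher. Their median of 0.33 rests on 3 genes and lay above the 0.27 of the co-chaperones and of TRiC and prefoldin. Hspa4 had -0.01 (-0.06 to 0.04), Hspa4l was the highest (0.34, 0.19 to 0.48), and in Prog Hspa14 had -0.04 (-0.15 to 0.06). Of 10 other mitochondrial chaperones and proteases, 1 was higher in Int in B cells, near the 12.9% of all genes. It was Spg7 (0.27, 0.17 to 0.37), while Yme1l1 had -0.01 (-0.07 to 0.05) and Grpel2 -0.16 (-0.31 to -0.01). In Prog Yme1l1 had -0.35 (-0.42 to -0.27) and Grpel1, a nucleotide exchange factor of mitochondrial HSP70, 0.41 (0.30 to 0.53). Of heat shock factors and their regulators, Hsf1 measured 25.6, 22.7, 25.7 and 28.5 CPM in B cells (Prog -0.17, -0.32 to -0.02, and Int 0.15, 0.04 to 0.26), and Hsbp1 had 0.32 (0.23 to 0.41) in Prog and 0.04 (-0.03 to 0.11) in Int. Of the 8 small heat shock proteins 1, Hspb1, was compared, and in macrophages in Int alone. It measured 2.24 CPM in I-LC32 and 24.0 in I-HC32 (3.42, 2.05 to 5.30), where the I-LC32 level rests on 4 UMIs and the gene was compared through its level in I-HC32.

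**Figure D4:**
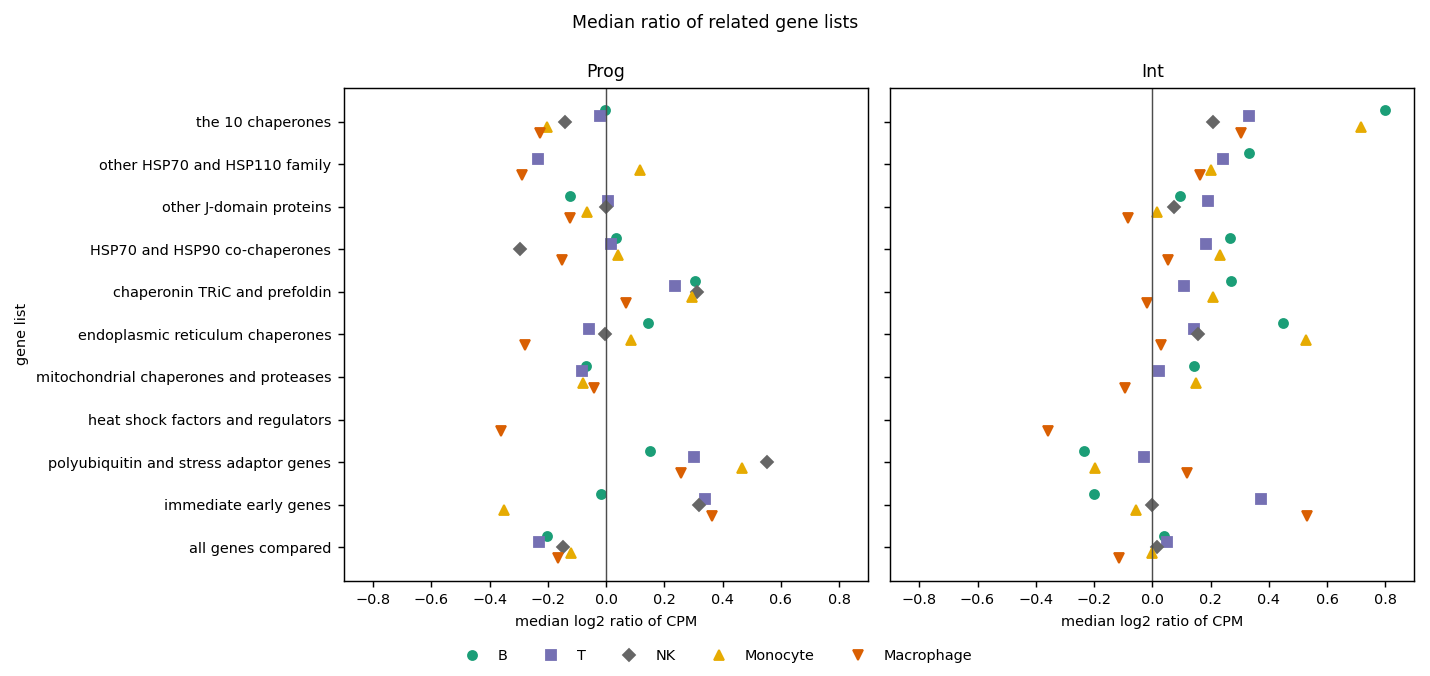
Median log2 ratio of CPM (x axis) of the 10 chaperones, of related gene lists with at least 3 genes compared and of all genes compared (y axis) in Prog (left) and Int (right), 1 marker per cell class. In Int the 10 chaperones have the highest median of the rows shown in B cells and monocytes, and the endoplasmic reticulum chaperones come next in both. Immediate early genes have a higher Int median than the 10 chaperones in T cells (0.37 against 0.33) and macrophages (0.53 against 0.31).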

How the data were processed

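Single-cell 3′ libraries of pooled liver FNA biopsies were analysed, 1 for each of 4 conditions. The deposited values are raw UMI counts of genes in cells, which the authors made with Cell Ranger 9.0.1 on the mouse reference GRCm39 (GRCm39-2024-A) for barcodes called as cells; the processing notes also list Seurat 5.3. No ambient RNA correction, normalization, cell filter or doublet removal was found in these counts. Deposited totals were 50941106 to 89257239 UMIs per library.

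Kept cells had at least 500 UMIs, at least 300 genes and at most 10% mitochondrial UMIs. A cell entered a class with at least 2 of its markers, at least 3 marker UMIs and no other class above 20% of its marker UMIs. Doublets were not called. UMIs were summed per class and library and scaled to CPM. Levels had exact Poisson intervals, and ratios exact conditional intervals from the binomial distribution, both at 95%. On simulated counts of 2420 to 8592 genes, 95.0% to 95.6% of these intervals held the simulated ratio, and 100% of the genes changed 2-fold passed 1.2-fold. Of unchanged genes, 0.0407% passed in B cells in Int but 23.9% in macrophages in Int and 24.2% in NK cells in Prog.

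No condition was tested against another, because each has 1 library. The 10 genes and the 10 other gene lists were chosen with earlier results of these data known. All 10 genes are named, with, of each list, the gene of highest mean CPM and those of lowest and highest ratio in B cells, and the 10 genes most like the set; some results that this rule would name are not reported here. The analysis tried 15 alternatives, and 2 more were added after the values had been seen. Gene positions come from GENCODE vM39 (GRCm39) and promoter windows from RefSeq (GRCm38.p6). Scripts ran under Python 3.11.15 with pandas 2.3.3, numpy 2.4.6 and scipy 1.17.1, and figures were drawn with matplotlib 3.10.9.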

Additional observations from a re-analysis of the deposited data

Results flagged for a closer look

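In 7 pairs of a gene and a class the Prog and Int ratios lay on opposite sides past 1.2-fold. The share of all genes that did so was not counted, and 35.9% to 46.3% of all genes compared in a class were lower in Prog. Relative to the class median, the Prog ratios of Hsp90aa1 in monocytes (-0.19) and of Hsp90ab1 in NK cells (-0.17) stayed within 1.2-fold. The difference between the contrasts was not tested, since each library stands alone. For Hsph1 the Int ratio exceeded the Prog ratio by 1.92 on the log2 scale in B cells, 1.203 in T cells, 2.04 in monocytes and 2.21 in macrophages, where the last value rests on 65 and 90 UMIs in the low cholesterol libraries. In monocytes the gap was 1.12 for Hsp90aa1 and 1.32 for Hspd1. In NK cells, with 29 cells in I-HC32, it was 0.82 for Hsp90ab1.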

How the results depend on the processing

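The main counts were 11 lower and 6 higher of 40 compared pairs in Prog, and 2 lower and 26 higher in Int. The 11 became 7 relative to the class median, 21 as UMIs per cell without scaling to depth, 6 at a fold of 1.5 and 7 without macrophages. The 6 became 2 at a fold of 1.5, 10 without a filter on low counts and 3 without macrophages. The 2 became 1 with a mitochondrial limit of 5%, with a stricter gate, with a looser gate, without the 5% of cells with most UMIs and without NK cells, 0 at a fold of 1.5 and 6 without a filter. The 26 became 14 at a fold of 1.5 and stayed within 1.5 times 26 under the other settings run. Leaving out NK cells or macrophages was chosen after seeing the data. Ratios of single pairs were recomputed under 12 settings, 80 in each. Keeping only Cd8 T cells changed T cells alone, and keeping follicular-like B cells and Cd4 T cells changed those classes alone. The other classes then stayed inside the counting interval of the main value by construction. As UMIs per cell 40 of 80 stayed inside it, and relative to the class median 48 of 80. Of all 960 ratios, 816 stayed inside the interval, 139 moved out of it, and 5 changed sign. These were, in NK cells, Hspa8 in Prog (-0.046 as UMIs per cell), Hspd1 in Prog (0.11 with the stricter gate) and Dnaja1 in Int (0.36 with the stricter and 0.13 with the looser gate), and, in macrophages, Hsph1 in Int (-0.20 with every cell equal); the cause was not tested. No paired analysis was possible because each condition has 1 library. Counting error is large in NK cells and in low cholesterol macrophages, and the missing replicate error limits every class.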

Other observations

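Polyubiquitin and stress adaptor genes did not follow the chaperones. In Int 3 of 7 were at least 1.2-fold lower and none higher in B cells, against 7.09% and 12.9% of all genes, with a median ratio of -0.23. In Prog 2 of 6 were higher and 1 lower in B cells, against 15.2% and 44.3% of all genes. Ubb, a polyubiquitin gene, measured 978 CPM in P-LC24 and 1412 in P-HC24, with 1419 for I-LC32 and 1438 for I-HC32 in B cells. P-LC24 was the low library, and the other 3 were alike. Ppp1r15a, which restarts translation after stress, had the lowest Prog ratio (-0.53, -0.60 to -0.46) and the highest Int ratio (0.06, 0.00 to 0.11), and Gadd45b the lowest Int ratio (-0.60, -0.68 to -0.52).

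Immediate early genes differed by class. In Int 13 of 16 were higher and none lower in T cells and 14 of 16 higher in macrophages, against 18.6% and 15.1% of all genes. In B cells 1 of 15 was higher and 4 lower, against 12.9% and 7.09%. In B cells Jund was the most abundant, with 1308, 1729, 1776 and 1991 CPM. Fos had the lowest Prog ratio (-0.85, -0.90 to -0.81), Egr1 the lowest Int ratio (-0.55, -0.62 to -0.48), and Atf3 the highest in both (0.46, 0.41 to 0.50, in Prog and 0.35, 0.32 to 0.37, in Int).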
